A study of Mus musculus with 6 samples.

Results

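*Tomm40*, *Clstn3* and *Adam9* are 3 genes whose mRNA signal was among the most reduced in the neocortex of mice without *Khsrp*, the gene of an RNA-binding protein that directs AU-rich mRNAs to decay. They were chosen by their place in the lower block of the study's table of changed genes and by the size of the fall between these same arrays, so their differences between genotypes are given as a description, without a test. They are 3 of the 261 gene symbols of that block and of the 1727 genes that could be named among 48438 probes tested. Each gene had 1 probe that could be named, with 1 spot on each array. Other probes of these genes may be among those without a name.

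The neocortex was taken from adult mice labelled as male. There were 3 mice with a constitutive deletion of *Khsrp* in every cell type (*Khsrp*-/-, arrays 1 to 3) and 3 wild type littermates (WT, arrays 1 to 3), with no treatment named in the labels, and all on a line bred to C57Bl/6. Each array was of 1 colour and was taken as 1 mouse, since the sample titles number the arrays and name no pool. The p-values of the fit across all probes rest on the spread between arrays of a genotype. That spread holds differences between mice and, as given below, between scans. In whole tissue, fewer cells of a type and less RNA per cell cannot be told apart.

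Tomm40 is the channel-forming subunit of the translocase of the outer mitochondrial membrane, through which proteins made in the cytosol enter the organelle. Clstn3, calsyntenin 3, is a cadherin-like membrane protein of the synapse that takes part in synapse formation. Adam9 is a membrane-bound metalloprotease that cuts the outer parts of other membrane proteins, and is one of the proteases able to cut the amyloid precursor protein.

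The promoters of *Tomm40* and *Clstn3* are shown as those available, since *Adam9* had none in the RefSeq set used. All 3 genes were lower on the same arrays. They run from 250 bases before to 50 bases after the start in RefSeq, build GRCm38.p6, on the minus strand, at chr7:19715380-19715679 for *Tomm40* and chr6:124464735-124465034 for the upstream start of *Clstn3*. Capitals mark matches on either strand to CCAAT (the box bound by NF-Y), GGGCGG (the GC box bound by Sp1) and TGACGTCA (the full cAMP response element).
Tomm40: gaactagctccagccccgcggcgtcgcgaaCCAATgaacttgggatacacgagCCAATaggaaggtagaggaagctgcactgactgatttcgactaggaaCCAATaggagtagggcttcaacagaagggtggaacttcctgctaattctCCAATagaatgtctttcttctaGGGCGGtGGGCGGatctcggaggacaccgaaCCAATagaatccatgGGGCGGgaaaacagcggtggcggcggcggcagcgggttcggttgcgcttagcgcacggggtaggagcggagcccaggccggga
Clstn3: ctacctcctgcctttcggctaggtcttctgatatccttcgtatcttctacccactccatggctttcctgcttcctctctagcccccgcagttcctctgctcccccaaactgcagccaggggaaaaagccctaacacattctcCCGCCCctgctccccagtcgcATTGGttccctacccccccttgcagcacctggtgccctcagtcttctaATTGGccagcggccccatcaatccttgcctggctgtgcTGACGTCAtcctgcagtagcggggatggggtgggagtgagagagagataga

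The *Tomm40* promoter held 5 copies of CCAAT, which do not overlap one another, and 3 of GGGCGG. Of 32851 promoters of the same length, 37.4% held CCAAT at least once and 0.271% held it 5 times or more, whereas 35.7% held GGGCGG and 10.7% held it 3 times or more. The *Clstn3* promoter held 2 copies of CCAAT, which 11.7% of the promoters did, 1 of GGGCGG and 1 of TGACGTCA, which 1.79% did. Neither these motifs nor CCGGAA (the core bound by ETS factors), CACGTG (the palindromic E-box) or TATAAA (the TATA box) was found in the window of the other *Clstn3* start at chr6:124462695-124462994. The last 3, which 14.9%, 7.15% and 13.6% of the promoters held, were not found in the windows printed above either. A match is a run of letters and does not show binding.

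Before the values of the genes are given, 3 features of the arrays bear on them. To begin with, 3 scans held 2 arrays each. *Khsrp*-/- array 1 was scanned with WT array 3, *Khsrp*-/- arrays 2 and 3 were scanned together, and so were WT arrays 1 and 2. For these last 4 arrays, genotype and scan cannot be told apart, and the first pair is the only one with both genotypes. The 75th percentile of the log2 signal was subtracted in scaling, and it also varied. It came to 8.85, 8.46 and 8.42 in *Khsrp*-/- mice 1, 2 and 3, against 8.92, 8.96 and 8.73 in the WT mice, so it was lowest on the 2 arrays scanned together. Between 71.3% and 82.6% of the spots were well above background on an array.

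Finally, the Y-linked genes went against the label of 2 mice. These genes, *Uty*, *Kdm5d*, *Ddx3y* and *Eif2s3y*, were singled out after their values were seen. *Uty* and *Eif2s3y*, well above background on all arrays, lay at -6.08 and -2.63 from their WT mean on the log2 scale on *Khsrp*-/- array 1, and at -6.13 and -3.36 on array 3. *Kdm5d* and *Ddx3y* were not well above background on these 2 arrays, so their values there are only bounds. On array 2 the 4 genes lay between 0.12 and 0.21. No WT array differed from that mean by more than 0.18 in any of these 4 genes. The arrays labelled *Khsrp*-/- 1 and 3 therefore had far less Y-linked signal than the other 4 arrays, although all 6 are labelled male. The values of each gene on *Khsrp*-/- array 2, where Y-linked signal was at the WT level, are given below.

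*Tomm40* had processed signals of 10762, 2460 and 1578 on *Khsrp*-/- arrays 1, 2 and 3, and of 17333, 17694 and 19565 on WT arrays 1, 2 and 3. All *Khsrp*-/- arrays lay below all WT arrays, with array 1 well above the other 2 of its genotype. After scaling, *Khsrp*-/- neocortex had a level of 3.18 ± 1.22 (SD, n = 3) and WT neocortex one of 5.28 ± 0.22 (SD, n = 3) on the log2 scale, a difference of -2.10, which leaves 23.4% of the WT level.

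*Clstn3* had processed signals of 18078, 3142 and 2192 on *Khsrp*-/- arrays 1, 2 and 3, and of 24811, 26055 and 23814 on WT arrays 1, 2 and 3. The 3 WT arrays were close to one another, and the *Khsrp*-/- arrays again divided into array 1, near them, and arrays 2 and 3, far below. The scaled log2 level of *Khsrp*-/- neocortex was 3.71 ± 1.39 (SD, n = 3) and that of WT neocortex 5.73 ± 0.07 (SD, n = 3), a difference of -2.02, or 24.6% of the WT level.

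*Adam9* had processed signals of 1084, 216 and 203 on *Khsrp*-/- arrays 1, 2 and 3, and of 2053, 2181 and 1138 on WT arrays 1, 2 and 3. Here the WT arrays divided too, and WT array 3 lay next to the *Khsrp*-/- array scanned with it. On the scaled log2 scale, *Khsrp*-/- neocortex stood at -0.08 ± 1.13 (SD, n = 3) and WT neocortex at 1.88 ± 0.39 (SD, n = 3), a difference of -1.96, or 25.8% of the WT level.

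**Figure D1:**
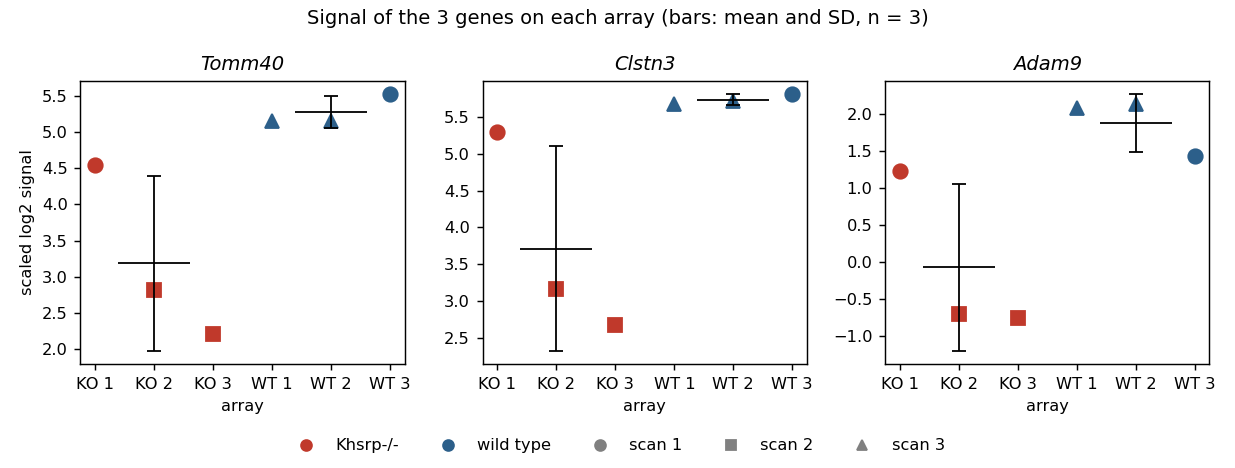
The scaled log2 signal (y axis) of *Tomm40*, *Clstn3* and *Adam9* on each of the 6 arrays (x axis) is plotted as 1 point per mouse, with colour for genotype, symbol for scan, and lines for the mean and SD of 3 arrays. *Khsrp*-/- arrays 2 and 3 lie far below the WT arrays in each gene, *Khsrp*-/- array 1 lies nearer to them, and the gap to the lowest WT array is 0.61, 0.38 and 0.20 in the 3 genes.

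In all 3 of the 3 genes the *Khsrp*-/- arrays did not overlap the WT arrays. The rule chose them on this contrast, and 9.90% of the 48364 probes measured on all arrays were also lower without overlap. The gap between the highest *Khsrp*-/- and the lowest WT array was 0.61 for *Tomm40*, 0.38 for *Clstn3* and 0.20 for *Adam9* on the log2 scale. Their spread among *Khsrp*-/- mice was wide, with ranges of 2.34, 2.62 and 1.99, against WT ranges of 0.38, 0.14 and 0.71.

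The size of the difference depended on the arrays compared. Within the shared scan, *Khsrp*-/- array 1 minus WT array 3 was -0.99 for *Tomm40*, -0.52 for *Clstn3* and -0.20 for *Adam9*, that is 50.4%, 69.6% and 87.3% of the WT signal. Between the arrays of the other 2 scans, the mean of *Khsrp*-/- arrays 2 and 3 minus that of WT arrays 1 and 2 was -2.65, -2.78 and -2.84, that is 15.9%, 14.6% and 14.0% of the WT signal. *Adam9* thus had the smallest of the 3 differences within the shared scan and the largest between the other arrays. These are single pairs of arrays or means of 2, and the part of the scan in the difference was not tested.

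*Khsrp*-/- array 2, the one with Y-linked signal at the WT level, minus the WT mean was -2.47 for *Tomm40*, -2.57 for *Clstn3* and -2.58 for *Adam9*. These differences are larger than those over all 3 arrays. Array 3, with little Y-linked signal, gave -3.08, -3.06 and -2.64, and array 1, which also had little, gave -0.74, -0.44 and -0.65. The order of the 3 arrays in *Tomm40*, *Clstn3* and *Adam9* differed from their order in the Y-linked genes. Arrays 2 and 3 were scanned together, and the parts of scan and of the Y-linked difference in these values were not tested.

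Among the 48438 probes tested, 30 had a difference as low as that of *Tomm40* or lower, 40 as low as that of *Clstn3* and 49 as low as that of *Adam9*. Within the shared scan the genes moved to other places in the order of all probes. There 540 probes (1.12%) were as low as *Tomm40*, 2666 (5.51%) as low as *Clstn3* and 12409 (25.6%) as low as *Adam9*. In the lower block of 266 entries, the 3 genes stood at places 9, 10 and 12 by the difference over all arrays, and at places 48, 112 and 215 by that of the shared scan.

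**Figure D2:**
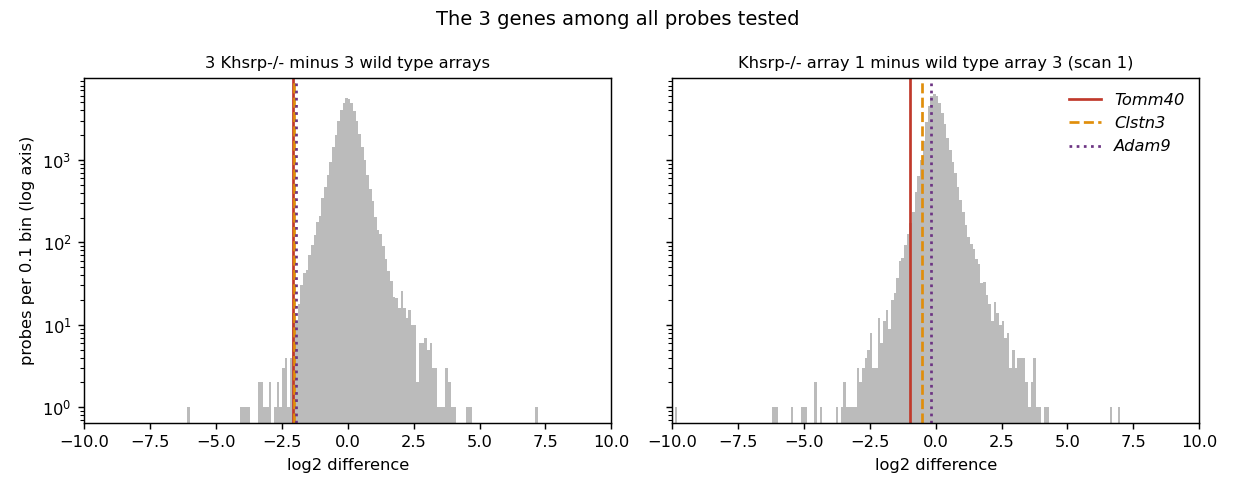
Each panel shows the number of probes (y axis, log scale) by log2 difference between *Khsrp*-/- and WT (x axis), over all 6 arrays on the left and for the 2 arrays of the shared scan on the right, with lines at the 3 genes. The lines lie together at -2.10, -2.02 and -1.96 on the left, near the lower end, and apart at -0.99, -0.52 and -0.20 on the right.

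Just above *Tomm40* in the order of falls stood *Rnd1*, of a small GTPase, and *Defb19*, of a beta-defensin, with log2 differences of -2.17 and -2.16, and just below *Adam9* stood *Tbata* with -1.95 and *Enpp5* with -1.93. *Eif2s3y*, which lay between *Clstn3* and *Adam9* with -1.96, is one of the Y-linked genes. The Y-linked *Uty*, *Kdm5d* and *Ddx3y* stood at places 1, 2 and 4 of the order, with -4.01, -3.76 and -3.21. The values of *Kdm5d* and *Ddx3y* are not exact. *Prss44*, of a serine protease, had -3.38. Both *Prss44* and *Defb19* were well above background on *Khsrp*-/- array 1 but not on arrays 2 and 3, so their differences are not exact. The block itself ended at a ratio of mean raw signals of 0.499, held by *Reg3b*, against 0.271 for *Tomm40*, 0.314 for *Clstn3* and 0.280 for *Adam9*, and 1481 probes outside the block had a ratio no higher than that of *Reg3b*.

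The spots themselves were clear on every array. All 3 spots were well above background on all 6 arrays, and none was saturated or marked as an outlier. The median spot intensity was between 72.5 and 1119 times the local background for *Tomm40*, between 110 and 1759 times for *Clstn3* and between 11.4 and 172 times for *Adam9*, the dimmest of the 3. Feature Extraction gave an error of 10.0% to 10.2% for each processed signal, which covers the spot and not the mouse.

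The spots were also far apart on the array, at row 360 and column 47 for *Tomm40*, row 104 and column 12 for *Clstn3* and row 78 and column 98 for *Adam9*, of 384 rows and 164 columns. Around them, 36, 37 and 38 other spots lay within 3 rows and 3 columns. Their median log2 differences between genotypes were 0.00, 0.15 and -0.05, and 1 spot near *Tomm40* and 0 near the other 2 genes had a difference of -1 or lower.

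The 3 genes had similar profiles over the 6 arrays. Likeness was measured as the root mean square (RMS) difference between 2 genes over the 6 arrays, after the WT mean of each gene was subtracted from its scaled log2 signal. It was 0.15 between *Tomm40* and *Clstn3*, 0.40 between *Tomm40* and *Adam9* and 0.33 between *Clstn3* and *Adam9*, where the median over all other probes was 1.68, 1.68 and 1.58 from each gene. The rule chose all 3 as low in *Khsrp*-/-, so part of this likeness was fixed by it. *Adam9* stood somewhat apart, since WT array 3 minus the mean of the other WT arrays was -0.68 in *Adam9*, but 0.38 in *Tomm40* and 0.12 in *Clstn3*.

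The named genes nearest in profile were sought among genes of the study's table, so that those nearest to 3 genes chosen as low had to come from its lower block. For *Tomm40* and for *Clstn3* they were the same 5, in the same order, *Lce1l*, *Enpp5*, *Tbata*, *Folr4* and *Prss46*, with RMS differences of 0.20 to 0.34 and of 0.11 to 0.34. *Lce1l* encodes a protein of the cornified envelope of skin, *Enpp5* a membrane phosphodiesterase of the nucleotide pyrophosphatase family and *Folr4* the egg receptor for sperm. For *Adam9* they were *Gm11938*, *Enpp5*, *Rnd1*, *Defb19* and *Spink12*, with RMS differences of 0.23 to 0.30, of which *Defb19* was not well above background on *Khsrp*-/- arrays 2 and 3.

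*Lce1l*, the nearest named gene to *Clstn3*, lay at -0.33, -2.38 and -2.96 from its WT mean on *Khsrp*-/- arrays 1, 2 and 3, and *Rnd1* at -0.85, -2.79 and -2.87. As in the 3 genes, arrays 2 and 3 were far below array 1. *Rnd1* also shared the low WT array 3 of *Adam9*, with -0.81 from its WT mean there against -0.45 in *Adam9*. Over all probes, named or not, 18 lay within an RMS difference of 0.3 of *Tomm40*, 36 of *Clstn3* and 19 of *Adam9*.

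The split between *Khsrp*-/- array 1 and the other 2 was present in much of the lower block. In the 263 other entries, the median distance from the WT mean was -0.59 on array 1, -1.08 on array 2 and -1.55 on array 3, and array 1 was the highest of the *Khsrp*-/- arrays in 177 of them (67.3%), as against 31.9% of all probes. The distances of the 3 genes on arrays 2 and 3 were larger than these medians, and on array 1 they were on both sides of the median. Both *Khsrp*-/- arrays 2 and 3 lay 2 log2 units or more below the WT mean in 11 of the other 263 entries, and in 94 of 48364 probes.

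**Figure D3:**
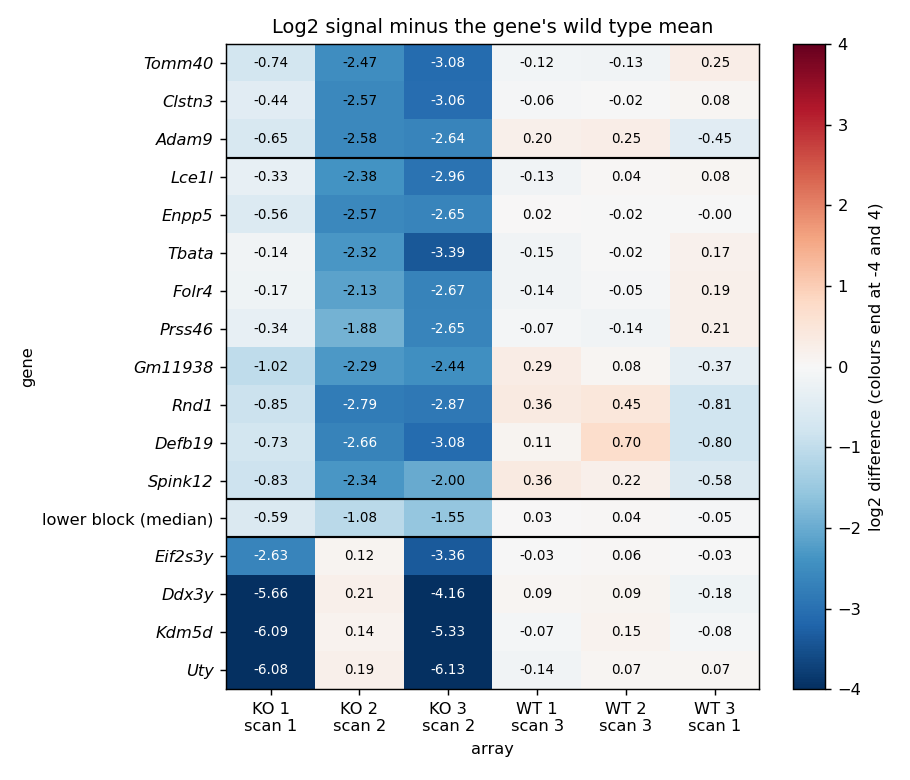
Rows are genes and columns are the 6 arrays with their scan, and each cell gives the scaled log2 signal minus the gene's own WT mean, for the 3 genes, the named genes nearest to them in profile, the median of the rest of the lower block and 4 Y-linked genes. *Khsrp*-/- arrays 2 and 3 are low in the 3 genes and in those nearest to them, while the Y-linked genes are low on *Khsrp*-/- arrays 1 and 3, where *Kdm5d* and *Ddx3y* were not well above background.

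No control gene was lower by as much. The 3 genes were chosen by the size of their fall, so this comparison is only a description. The 15 of these genes that could be named differed by -0.43 (*Actb*) to 0.67 (*Tfrc*) between genotypes on the log2 scale, with a median of 0.20. On *Khsrp*-/- arrays 2 and 3 the lowest of them lay at -0.17 and -0.74 from its WT mean.

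Other genes of the same pathways were taken from lists, of which only members in the study's table of changed genes could be named. Since that table was itself selected on these arrays, most named members had to differ, and the counts describe those members and not the pathways. Of the 1803 named probes 1522 came from the higher and 266 from the lower block, so a named member was more likely to be a higher one. The synaptic adhesion list was an exception, with 2 other members from the higher and 3 from the lower block. Over all probes, 7.03% were lower and 9.26% higher in *Khsrp*-/- at an unadjusted p under 0.05 and a fold change of at least 1.25 in the limma fit, with a median log2 difference of 0.00. Without scaling between arrays the median of all probes shifted to -0.29, and of the higher calls named below only 2, *Ndufs4* and *Cox7b*, were still made there. After adjustment over all probes none of the 26 other list members named passed limma's threshold, the lowest adjusted p being 0.112, while 23 had an unadjusted p under 0.05. With scan as a fixed block, 0 of these other members were called in the mitochondrial import, synaptic adhesion, metalloproteinase and amyloid precursor lists. The difference there comes from the pair of arrays in the shared scan alone. It was kept in some members, as in *Tomm20l* (0.81) and *Mmp17* (-0.84), and was near 0 in others, as in *Timm13* (0.08) and *Slitrk4* (0.06). Among list members other than the 3 genes, only *Ndufs4*, *Cox7b* and *Camk2a* were called with that block.

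The list of 45 genes for mitochondrial protein import also holds *Timmdc1* and *Bcs1l*, which are assembly factors of the respiratory chain. Of this list, 5 besides *Tomm40* were named, of which 4 rose, 1 fell, and the median log2 difference was 0.43. *Tomm20l*, a relative of the import receptor Tomm20, rose by 0.84, *Mtx2*, of the outer membrane sorting machinery, by 0.45, and *Timm13*, a chaperone of the intermembrane space, and *Timmdc1*, an assembly factor of complex I, each by 0.43. *Bcs1l*, an AAA protein that assembles respiratory complex III, fell by 0.96. On *Khsrp*-/- arrays 1, 2 and 3 it lay at -0.61, -0.56 and -1.72 from its WT mean, so array 2 was not low in it as it was in *Tomm40*.

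Of 76 respiratory chain subunits 6 were named, with a median of 0.58, and all came from the higher block, as most named probes did. *Cox7b* of complex IV rose by 0.998 and *Ndufs4* of complex I by 0.93, and *Ndufab1*, *Atp5a1* and *Atp5c1* rose by 0.61, 0.54 and 0.50. *Ndufb5*, with a difference of 0.41, did not pass the thresholds.

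Of 63 genes of synapse-organizing adhesion, 5 besides *Clstn3* were named, of which 3 fell, 1 rose, and the median log2 difference was -0.88. *Lrrtm1*, a postsynaptic leucine-rich repeat protein that binds neurexins as calsyntenin 3 does, fell by 1.24, with -0.95, -0.94 and -1.83 from its WT mean on *Khsrp*-/- arrays 1, 2 and 3. Array 1 was as low in it as array 2. *Dag1*, dystroglycan, fell by 0.88, and its other 2 probes differed by -0.86 and -1.09.

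*C1ql2*, a secreted organizer of mossy fibre synapses, fell by 1.59, and lay at -2.03, -0.19 and -2.54 on *Khsrp*-/- arrays 1, 2 and 3. It was thus low on the arrays with little Y-linked signal. *Il1rapl1*, an adhesion partner of presynaptic phosphatases, rose by 0.40, and *Slitrk4* had a difference of 0.41 that did not pass.

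Of 65 genes of ADAM and membrane metalloproteinases with their inhibitors, 4 besides *Adam9* were named, of which 3 rose, 1 fell, and the median log2 difference was 0.63. *Adam1a*, a sperm ADAM, rose by 0.63, and *Adamts5* and *Adamts15*, secreted proteases that cut proteoglycans, rose by 0.64 and 0.70. *Mmp17*, a membrane-anchored matrix metalloproteinase, fell by 0.79. In the list of 19 genes of the amyloid precursor family and its secretases 3 were named, with a median of 0.36. *Aplp2*, a relative of the amyloid precursor, rose by 0.36, and *App* itself, with 0.39, did not pass. *Apbb2*, an adaptor of the precursor's cytoplasmic tail and neither a family member nor a secretase, fell by 1.14.

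In the named genes of the lists other than the 3, *Dag1* was the only one at -1 or lower on both *Khsrp*-/- arrays 2 and 3, with -1.01 and -1.15. Markers of cell types could hardly be followed, since 3 of 45 in 7 lists were named. *Camk2a*, a kinase of excitatory neurons, fell by 0.86, *Snap25*, of synaptic vesicle fusion, rose by 0.55 and *Slc1a2*, the glutamate transporter of astrocytes, rose by 0.48. No marker of inhibitory neurons, oligodendrocytes, microglia, endothelium, choroid plexus or blood was named, and the part of cell composition in the values of the 3 genes was not tested.

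Genes that lie next to the 3 in the mouse genome were looked up by name. None of the 10 nearest protein-coding genes around *Tomm40*, among them *Apoe*, could be named. Around *Clstn3*, 1 of 10 was named, *Pex5* of peroxisomal protein import, with a log2 difference of 0.92, and around *Adam9* 1 of 10, *Plekha2*, with 0.37. Both came from the higher block, as most named probes did.

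The differences of the 3 genes were below 0 in all 51 values from 17 other ways of processing the arrays. The genes were chosen as low on these arrays, and each *Khsrp*-/- array lay below each WT array. Leaving arrays out therefore had to give values below 0, and the count is only a description. The authors' own normalized log2 values gave -2.08 for *Tomm40*, -2.003 for *Clstn3* and -1.93 for *Adam9*. Leaving out *Khsrp*-/- array 1 gave -2.78, -2.82 and -2.61, and leaving out *Khsrp*-/- array 3 gave -1.60, -1.51 and -1.61.

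**Figure D4:**
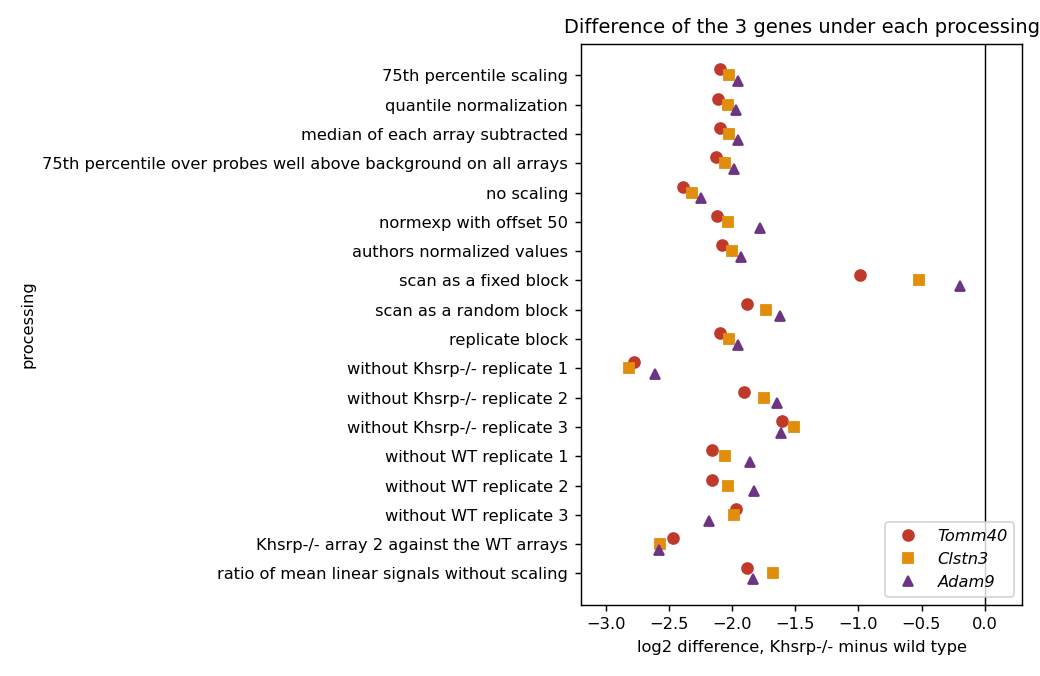
The log2 difference between *Khsrp*-/- and WT (x axis) is shown for the 3 genes under each processing (y axis), with a line at 0. All values are below 0, most lie between -2.82 and -1.51, and those with scan as a fixed block are the nearest to 0, at -0.99, -0.52 and -0.20.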

How the data were processed

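The members and gene lists were chosen with earlier results of these data known. The authors deposited the scanner output of 6 arrays (Arraystar mouse lncRNA arrays on an Agilent scanner, after rRNA removal), in which Agilent Feature Extraction 11.0.1.1 had subtracted the background from each spot's intensity, and a table of normalized log2 values made by the authors, whose columns share 1 distribution and for which the submitters' processing notes name limma. The table's scale is log2, and its centring is not stated. Probe coordinates were not used.

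Control spots and outlier spots were left out, spots of a probe were averaged, and log2 of the processed signal minus each array's 75th percentile was compared. Names came from the study's table, whose 6 raw values matched 1 probe within a relative difference of 2e-05 for all 266 lower entries, and for 15 control genes from RefSeq accessions. *Khsrp* itself was not named, and is not analysed here. The study's table also holds the authors' own fold changes and p-values, which were not used. Sequences were credited to RefSeq, and 2 of the 3 genes had a promoter there.

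Only the 48438 of 60915 probes well above background on at least 3 arrays were tested, with limma 3.58.1 (R 4.3.3, lmFit and eBayes, Benjamini-Hochberg adjustment), which was tested on simulated data. No p-value was computed for the 3 genes. The number of arrays limits the precision. Genes named in the text are the 3, for each the 5 nearest in profile, named list members that passed the unadjusted thresholds or lay nearest to 0, neighbours of the 3 in the order of falls, *Rnd1* and *Prss44*. Y-linked, control and genomic neighbour genes were added after their values were seen. Of several probes the brightest was taken. Alternatives changed the scaling, background correction, source of values, arrays, block, test and filter, and the setting with *Khsrp*-/- array 2 alone was chosen after seeing the data.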

Additional observations from a re-analysis of the deposited data

How the results depend on the processing

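The differences of *Tomm40*, *Clstn3* and *Adam9* moved by less than the spread between replicates, pooled over both genotypes, under all alternatives but 1. That spread came mostly from the *Khsrp*-/- arrays, with SDs of 1.22, 1.39 and 1.13, against 0.22, 0.07 and 0.39 in WT. It is therefore a loose measure of stability. With scan as a fixed block, where the value comes from 1 pair of arrays, the differences were -0.99, -0.52 and -0.20. Leaving out 1 array at a time gave -2.78 to -1.60 for *Tomm40*, -2.82 to -1.51 for *Clstn3* and -2.61 to -1.61 for *Adam9*. The correlation of same-numbered arrays' deviations from their group means was -0.31, 0.10 and -0.31. Scans were shared between arrays of different numbers, so these values cannot tell whether replicate numbers pair the mice. A replicate block could not move the differences of -2.10, -2.02 and -1.96, since each replicate number holds 1 array of each genotype. With that block, 2667 probes were lower unadjusted and 0 adjusted.

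The number of probes lower in *Khsrp*-/-, 3405 unadjusted and 6 adjusted, was less stable. Unadjusted it was 7286 without scaling, 1092 with scan as a fixed block, 2220 with scan as a random block, 1817 with the methods' t-test (0 after Benjamini-Hochberg), and 6447 for *Khsrp*-/- array 2 alone, a lone mouse assumed to vary like the others. Adjusted, it was 9 with each array's median subtracted, 0 with scan as a fixed block, 3 as a random block, 3 with no filter on dim probes, 15 with trended and robust variances and 0 for array 2 alone. Leaving out 1 array gave 1495 to 6409 probes unadjusted and 0 to 1310 adjusted. The unadjusted count moved most without *Khsrp*-/- array 1 (6409, and 1310 adjusted), *Khsrp*-/- array 3 (1966, 1 adjusted), WT array 1 (1495, 1 adjusted) and WT array 2 (1656, 0 adjusted), and without *Khsrp*-/- array 2 the adjusted count was 10. The cause was not tested. The share of higher calls was 56.8%, and 14.4% without scaling.

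The list medians were, without scaling, 0.14 for mitochondrial import, -1.17 for synaptic adhesion, 0.34 for ADAM and metalloproteinase genes, 0.0697 for the amyloid precursor family and 0.29 for respiratory chain subunits, and with scan as a fixed block 0.0755, -0.30, 0.32, 0.18 and 0.29. None reversed, but with that block none of the other members in the first 4 lists was called. *Adam9*, the dimmest, gave -1.78 with normexp.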
